A study of Mus musculus with 45 samples.

Results

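The MHC class II genes examined here were H2-Aa, H2-Ab1 and H2-Eb1, which encode chains of the classical peptide-presenting molecules, Cd74, H2-DMa and H2-DMb1, which serve their assembly and peptide loading, and Ciita, their transactivator. They were taken by symbol from the RNA-seq count table of mouse colonic epithelium, and all 7 were found among its 24918 gene entries. The series covered 45 samples, 15 each by RNA-seq, targeted bisulfite sequencing and whole-genome bisulfite sequencing. The animals were male C57BL/6 mice (C57BL/6J in the methods of the study) that entered the study at 6 weeks of age, with 5 mice per diet group and no transgene or gene deletion in any group. LF mice were fed a lard-based diet deriving 10% of its energy from fat over 20 weeks, whereas HF mice were fed one deriving 60% over the same time. HFLF mice ate the 60% fat diet for 15 weeks and then the 10% fat diet for 5 weeks. Epithelium of the whole colon was released with EDTA, without sorting by cell type. The labels name nothing that ties mice with the same number in different groups together.

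MHC class II molecules are pairs of an alpha and a beta chain that carry peptides from the endosomal pathway to the cell surface, where CD4+ T cells read them. The invariant chain, encoded by Cd74, escorts new pairs and blocks their groove, and the H2-DM pair then exchanges the invariant chain remnant for peptide. The coactivator CIITA binds no DNA itself but joins RFX, CREB and NF-Y factors on the X and Y boxes of class II promoters. B cells, dendritic cells and macrophages make class II constitutively, while gut epithelial cells do so mainly after interferon gamma signaling. A high-fat diet has been described to lower class II expression in mouse intestinal epithelium.

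The libraries held 15230391 to 22762095 gene counts, and 12961 entries passed the filter on low counts, all 7 class II genes among them, each above the filter's cutoff in 15 of 15 libraries. Levels are given as CPM, counts scaled to a common library total after TMM correction for composition, and sequences of genes and promoters refer to GRCm38.p6, the assembly also known as mm10. The 10 epithelial markers summed to 17284 to 25588 CPM per library. No 2 mice of a group held near-identical counts, since even the closest 2 (LF1 and LF3) gave a chi-square of 5.74 for each degree of freedom, where counting error alone gives about 1. In bulk samples, more class II cells and more class II RNA per cell cannot be told apart.

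The X and Y boxes are the sequence elements through which CIITA acts. The RefSeq promoters, from 250 bases before to 50 after a gene start, matched 4 of the 7 genes with 5 promoters in all, 1 each of H2-Aa, H2-Eb1 and H2-DMb1 and 2 of H2-DMa. They were searched on both strands for the letters AGNAAC, part of an X box, followed after 24 to 34 bases by ATTGG, the Y box. The combination stood in 2 of the 5, those of H2-Eb1 and H2-DMb1, and in 0.551% of all 32851 promoters of that length. An X box spelled otherwise is missed by this search, so the other promoters, that of H2-Aa included, are not shown to lack X and Y boxes. The matching stretches are shown because both genes carry the same element at nearly the same distance from the start, with the AGNAAC and ATTGG letters in capitals, from 170 to 31 bases before the gene start on the plus strand.
H2-Eb1, chr17:34305697-34305836: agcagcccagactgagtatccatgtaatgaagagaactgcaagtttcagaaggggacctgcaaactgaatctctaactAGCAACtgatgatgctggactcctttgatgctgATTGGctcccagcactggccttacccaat
H2-DMb1, chr17:34153021-34153160: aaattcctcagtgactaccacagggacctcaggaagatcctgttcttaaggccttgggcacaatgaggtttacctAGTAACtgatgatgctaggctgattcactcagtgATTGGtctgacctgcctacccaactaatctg
The element began 92 bases before the start of H2-Eb1 and 95 bases before that of H2-DMb1. ATTGG alone, on either strand, stood in 4 of the 5 promoters and in 37.4% of all promoters, and AGNAAC alone in 3 of the 5 and in 48.1%. The interferon-response letters GAAA repeated after any 2 bases were in 0 of the 5 and in 3.44% of all promoters. These matches describe letters in short windows and were not tested against binding.

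H2-Aa, H2-Ab1, H2-Eb1 and both H2-DM genes lie in the MHC on chromosome 17. H2-Aa (Entrez 14960) spans chr17:34282751-34287771 on the minus strand. On the plus strand are H2-Ab1 (14961) at chr17:34263227-34269418, H2-Eb1 (14969) at chr17:34305867-34316674, H2-DMa (14998) at chr17:34122832-34139101 and H2-DMb1 (14999) at chr17:34153191-34160229. Cd74 (16149) lies at chr18:60803849-60812652 and Ciita (12265) at chr16:10480072-10527564, both on the plus strand. In the count table, Cd74 overlapped the entry of the microRNA gene Mir5107, and the other 6 overlapped no entry. H2-DMb1 has a close copy, H2-DMb2, with 53 counts over all 15 libraries, and how reads were split between the 2 genes is uncertain.

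Class II RNA varied from mouse to mouse far more than a typical gene, within each diet as well as between diets. For H2-Aa, the alpha chain of the I-A molecule, LF mice 1 to 5 had 24.2, 5.17, 5.27, 15.4 and 1.80 CPM. HF mice 1 to 5 had 3.71, 27.0, 4.60, 5.86 and 7.39 CPM, and HFLF mice 1 to 5 had 12.1, 11.97, 13.0, 102.8 and 32.7 CPM. LF1, LF4 and HF2 stood above the rest of their groups, HFLF4 stood highest of all, and all 3 groups overlapped. H2-Ab1, the beta chain of the same molecule, had 21.1, 6.55, 5.15, 15.0 and 3.28 CPM in LF mice, 4.47, 20.4, 6.31, 5.43 and 11.2 CPM in HF mice and 13.7, 16.4, 12.7, 79.3 and 30.8 CPM in HFLF mice. LF1, LF4, HF2 and HFLF4 again stood high in their groups. H2-Eb1, the beta chain of the I-E molecule, ranged from 3.41 to 11.8 CPM in LF mice, from 5.28 to 12.7 in HF mice and from 6.29 to 37.7 in HFLF mice. C57BL/6 mice are known to lack a working I-E alpha chain, and the entry H2-Ea-ps held 3 counts in all, with 13 of 15 libraries at 0.

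Cd74, the most abundant of the genes per kilobase of exon, had 55.2, 13.0, 13.7, 39.9 and 9.58 CPM in LF mice 1 to 5. HF mice had 15.4, 71.9, 12.7, 16.8 and 26.5 CPM, and HFLF mice had 34.6, 40.2, 28.9, 246.3 and 83.5 CPM. HFLF mice 1, 2 and 3 lay within the range of the LF mice, so the groups overlapped, while HFLF4 exceeded every other mouse.

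The 2 H2-DM genes, which encode the peptide exchange catalyst, had lower median levels per kilobase of exon than the classical chains in each group, as given further on. H2-DMb1 had 6.98, 1.18, 1.12, 3.201 and 1.09 CPM in LF mice, 1.13, 5.195, 1.00, 0.873 and 1.08 CPM in HF mice and 4.66, 5.14, 2.09, 19.7 and 8.20 CPM in HFLF mice. HF2 was the only HF mouse within the HFLF range for this gene. H2-DMa had 7.04, 2.88, 3.04, 5.66 and 2.12 CPM in LF mice, 2.64, 5.01, 2.60, 2.56 and 3.06 CPM in HF mice and 5.18, 5.08, 4.32, 16.3 and 6.73 CPM in HFLF mice. Again HF2 alone among HF mice reached the HFLF range.

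Ciita, the transactivator, was low in all groups. It had 2.74, 1.24, 1.05, 2.89 and 0.643 CPM in LF mice, 1.195, 5.13, 2.01, 1.56 and 2.70 CPM in HF mice and 1.86, 1.82, 1.87, 6.58 and 3.39 CPM in HFLF mice. HFLF mice 1 to 3 lay inside the HF range, and HF2 and HFLF4 were the 2 highest mice.

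**Figure D1:**
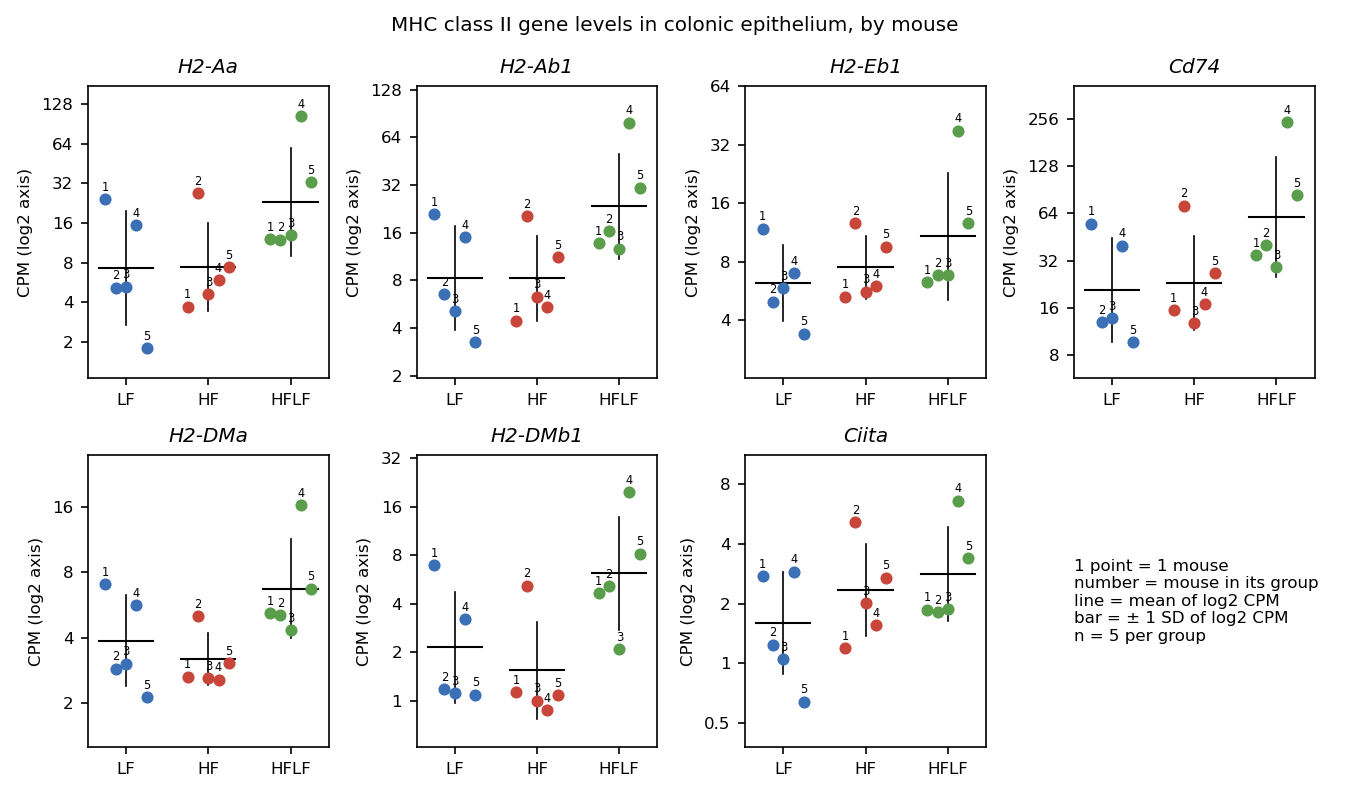
Level of each class II gene in CPM (log2 axis) in 5 LF, 5 HF and 5 HFLF mice, with 1 point per mouse labelled with its number, a line at the mean of log2 CPM and a bar of ± 1 SD. HFLF4 was the highest mouse for all 7 genes, at 246.3 CPM for Cd74, and LF1, LF4 and HF2 stood above the other mice of their groups.

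HFLF4 ranked first of 15 for all 7 genes, HFLF5 between 2 and 3, LF1 between 2 and 5 and HF2 between 2 and 7. LF5 ranked between 12 and 15. The highest library exceeded the lowest 57.1-fold for H2-Aa, 25.7-fold for Cd74, 24.2-fold for H2-Ab1, 22.6-fold for H2-DMb1, 11.1-fold for H2-Eb1, 10.2-fold for Ciita and 7.69-fold for H2-DMa. The SD of log2 CPM within groups was 1.31 for H2-Aa and 0.64 for H2-DMa, the extremes of the 7, against a median of 0.129 over all genes tested. A larger SD was found for 0.116% of tested genes in the case of H2-Aa and for 1.98% in the case of H2-DMa. Tested genes of all levels entered this comparison. Genes of similar level were not compared apart, although the lowest library held 10 counts of Ciita and 14 of H2-DMb1.

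To compare levels between genes, CPM was divided by the kilobases of exon in RefSeq. The median level in LF mice was 9.68 CPM per kb for Cd74, 5.49 for H2-Ab1, 4.67 for H2-Aa, 3.49 for H2-Eb1, 1.40 for H2-DMa, 0.918 for H2-DMb1 and 0.208 for Ciita. In HF mice these medians per kb were 11.9, 5.29, 5.198, 3.59, 1.22, 0.842 and 0.335 in the same gene order. HFLF medians were 28.4 CPM per kb for Cd74, 13.8 for H2-Ab1, 11.5 for H2-Aa, 4.09 for H2-Eb1, 4.003 for H2-DMb1, 2.40 for H2-DMa and 0.312 for Ciita. Cd74 stood first and Ciita last in each group, and H2-Ab1 and H2-Aa, neighbours in that order, differed by less than their spread between mice.

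HF mice were compared with LF mice to ask which genes differ in obesity. Genes were tested with edgeR's quasi-likelihood test on all 15 libraries, and a call required more than a 1.2-fold difference, p under 0.01 and, after Benjamini-Hochberg adjustment over all genes tested, p under 0.25, as in the methods of the study. By this rule 0 of the 7 class II genes were called between HF and LF mice, beside 1.58% of all 12961 genes tested. None of the 7 had an unadjusted p under 0.05 in edgeR, beside 10.9% of all genes tested, and DESeq2 also called 0. Of the log2 fold changes 3 were positive, and their median was -0.10, against 0.00 over all genes tested. The 95% confidence intervals were wide, and both a 2-fold lower and a 2-fold higher level lay within those of H2-Aa, H2-Ab1 and Cd74. The log2 fold change of H2-Aa was -0.10 (-1.68 to 1.48), that of H2-Ab1 -0.10 (-1.35 to 1.16), that of Cd74 0.12 (-1.25 to 1.499) and that of H2-DMb1 -0.55 (-2.03 to 0.92). The narrowest interval was that of H2-DMa, at -0.39 (-1.22 to 0.45). Ciita gave 0.55 (-0.46 to 1.56) and H2-Eb1 0.24 (-0.78 to 1.26).

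HFLF mice were compared with HF mice to ask what changed after the switch to the low-fat diet. H2-DMb1, H2-DMa and H2-Ab1 were higher in HFLF mice, 3 of 7 called, beside 1.23% of all genes tested called higher and 2.65% called in either direction. In edgeR, the log2 fold change was 2.09 ± 0.65 (SE) for H2-DMb1 (adjusted p = 0.153), 1.24 ± 0.38 for H2-DMa (adjusted p = 0.147) and 1.68 ± 0.56 for H2-Ab1 (adjusted p = 0.191). These were 4.27-fold, 2.37-fold and 3.19-fold differences between the group levels. With mouse number added to the fit as a block, H2-Ab1 was not called (log2 fold change 1.44, edgeR adjusted p = 0.268). H2-Aa (log2 fold change 1.83, edgeR adjusted p = 0.258) and Cd74 (1.60, edgeR adjusted p = 0.267) were not called, and neither were H2-Eb1 (0.85, edgeR adjusted p = 0.449) or Ciita (0.30, edgeR adjusted p = 0.833). Of the 7 genes 5 had p under 0.05 with higher levels in HFLF mice, beside 6.3% of all genes tested, and the median log2 fold change was 1.60, against 0.00 over all genes tested. The 7 genes moved together across mice, as given further on, so they do not count as independent genes.

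The calls changed when single mice were left out. Over all genes tested, 167 to 400 were called in the 15 fits of this kind. Leaving out HFLF4 left 0 of 7 genes called, and the log2 fold changes fell to 1.42 for H2-DMb1, 0.74 for H2-DMa, 0.94 for H2-Ab1, 0.84 for H2-Aa, 0.70 for Cd74 and 0.06 for H2-Eb1, while that of Ciita became -0.18. Leaving out HF2 gave 5 called genes, with log2 fold changes of 2.95 for H2-DMb1, 2.67 for H2-Aa, 2.28 for Cd74, 2.15 for H2-Ab1 and 1.47 for H2-DMa. Without HF1, HF3, HF4, HF5 or HFLF5 0 of 7 were called in each case, although the log2 fold changes stayed near those of the full set, at 1.92 to 2.08 for H2-DMb1, 1.18 to 1.28 for H2-DMa and 1.5 to 1.74 for H2-Ab1.

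HFLF mice were compared with LF mice, the lean mice of the same age that never ate the high-fat diet. In edgeR, 0 of the 7 genes were called beside 3.72% of all genes tested, while 6 had p under 0.05, all with higher levels in HFLF mice, beside 8.1% of all genes tested. DESeq2 called 0. The log2 fold change was 1.73 for H2-Aa (95% confidence interval 0.24 to 3.21), 1.58 for H2-Ab1 (0.40 to 2.76), 1.72 for Cd74 (0.38 to 3.06), 1.54 for H2-DMb1 (0.24 to 2.85), 1.09 for H2-Eb1 (0.10 to 2.07), 0.85 for H2-DMa (0.07 to 1.63) and 0.85 for Ciita (-0.14 to 1.84). The edgeR adjusted p was lowest for H2-Ab1, at 0.154. The count moved with single mice, to 5 of 7 without LF1, to 2 without HF2 or without HFLF1, to 1 without HFLF2 and to 3 without HFLF3. Over all genes tested, 404 were called without LF1, and 362 to 660 over the 15 fits that left out 1 library. Without HFLF4 it stayed at 0, and the log2 fold changes fell to between 0.30 for H2-Eb1 and 0.87 for H2-DMb1. The comparisons with HF and with LF mice share the HFLF libraries.

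**Figure D2:**
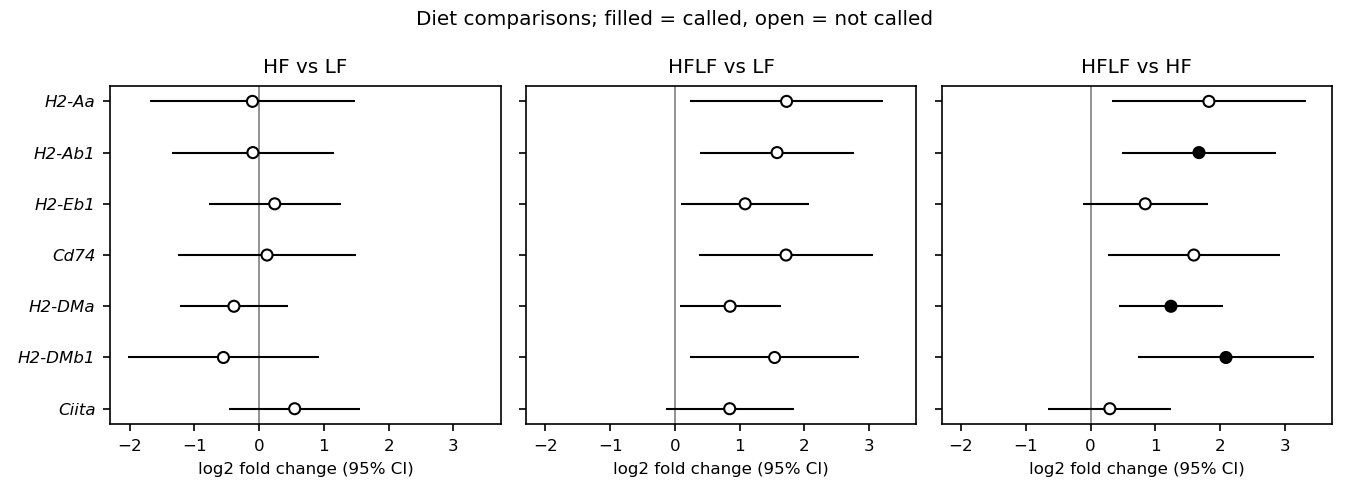
Log2 fold change of each class II gene (points) with its 95% confidence interval (lines) in the 3 diet comparisons of 5 against 5 mice, filled where called by edgeR. HF vs LF intervals all include 0, and the 3 filled points, H2-Ab1, H2-DMa and H2-DMb1, are in HFLF vs HF.

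**Figure D3:**
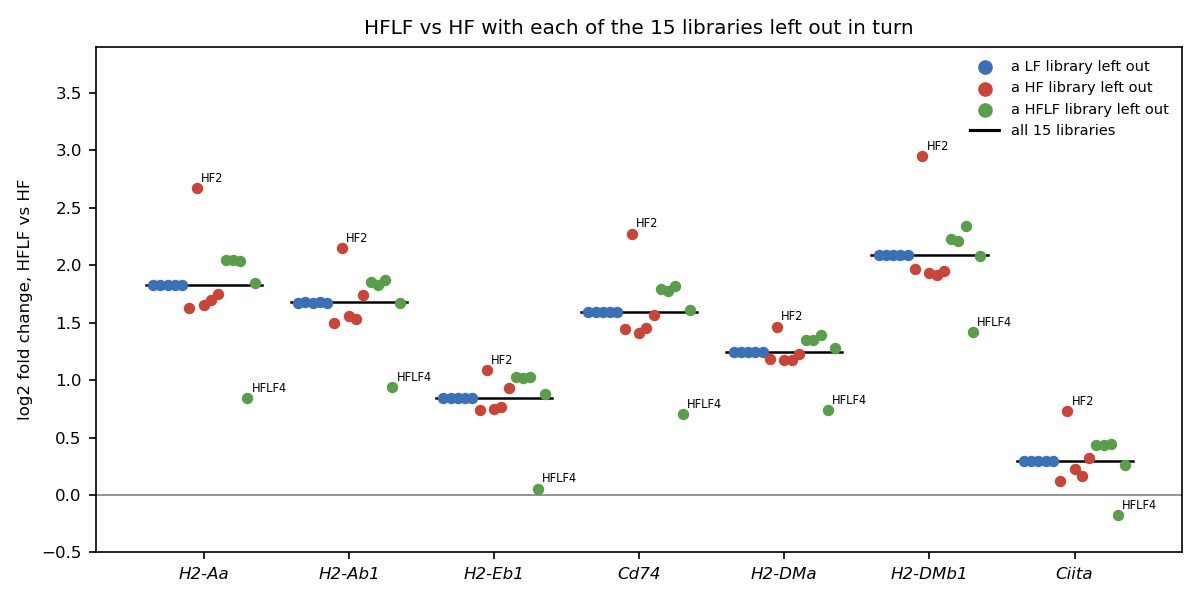
Log2 fold change of HFLF vs HF for each class II gene with each of the 15 libraries left out in turn (points, colored by the group of the library left out) and with all 15 libraries (line). Values without HFLF4 are the lowest and values without HF2 the highest for all 7 genes.

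The 7 genes moved together across mice. Over the 21 pairs, Pearson's r of log2 CPM across 15 libraries was 0.763 to 0.981 and Spearman's rho 0.639 to 0.954, and all 21 passed (permutation tests with 100000 resamples, two-sided, highest adjusted p = 0.00083 for r and 0.012 for rho). Without the 2 libraries farthest from the median of the first gene, r was 0.604 to 0.972. With group means removed, so that only differences between mice on one diet remained, r was 0.85 to 0.983. H2-Ab1 and Cd74 (r = 0.981) and H2-Aa and Cd74 (r = 0.98) were among the closest pairs, and H2-DMb1 and Ciita (r = 0.763) the least close, although r of this pair was 0.874 with group means removed. The points share library and scaling.

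Genes whose log2 CPM followed the mean of the 7 genes were named by rank among nonmembers with a mean of at least 50 counts. Over 15 libraries these were Irgm2 (r = 0.93), an interferon-inducible GTPase gene, Oasl2 (0.89), B2m (0.88), the light chain of class I molecules, Psmb9 (0.86) and Psmb8 (0.86), subunits of the immunoproteasome, Ddx60 (0.86), Parp12 (0.84) and Ifit1 (0.84). With group means removed they were Irgm2 (0.95), Gbp2 (0.91), a guanylate-binding protein gene, Psmb9 (0.91), Irgm1 (0.89), Tap1 (0.88), which pumps peptides for class I loading, Psmb8 (0.88) and Igtp (0.87). None of these 12 genes was called in any of the 3 comparisons. Of all genes tested, 1.58%, 3.72% and 2.65% were called in HF vs LF, HFLF vs LF and HFLF vs HF. The 12 genes were picked from these same libraries, so these shares give no expectation for them. Gbp2 had 28.9, 9.43, 5.70, 20.9 and 5.40 CPM in LF mice, 7.49, 41.3, 9.44, 7.98 and 9.13 CPM in HF mice and 9.55, 9.46, 8.10, 23.8 and 10.7 CPM in HFLF mice. LF1, LF4, HF2 and HFLF4 were high in Gbp2 as in class II, whereas HFLF5, ranked 2 or 3 of 15 in each class II gene, was not. The other named genes differed in this. HFLF5 was the highest mouse in Ddx60 (32.5 CPM), and only HFLF4 exceeded it in Oasl2 (48.2 CPM), Ifit1 (24.1 CPM) and Parp12 (116.4 CPM). In Psmb8 (33.6 CPM), Psmb9 (22.6 CPM) and Irgm1 (61.3 CPM), HFLF5 lay below LF1, LF4, HF2 and HFLF4. In Irgm2, B2m, Tap1 and Igtp it lay below some of these mice only.

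**Figure D4:**
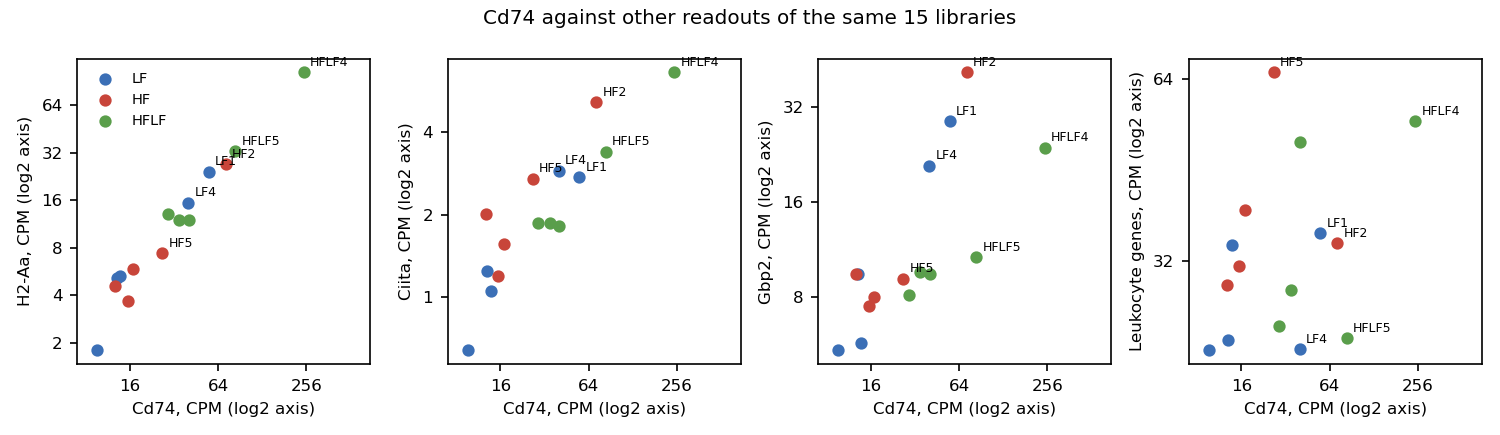
Cd74 in CPM (x axis) against H2-Aa, Ciita, Gbp2 and the summed CPM of 6 leukocyte genes in the same 15 libraries, 1 point per mouse, log2 axes. H2-Aa and Ciita followed Cd74 (r = 0.98 and 0.903), Gbp2 was high in LF1, LF4, HF2 and HFLF4 at 20.9 to 41.3 CPM, and the leukocyte sum was highest in HF5 at 65.5 CPM.

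Few of the other genes of the class II pathway were called. Of the partners of CIITA and further promoter factors, 0 of 8 tested genes were called in any comparison, with Rfx5, the DNA-binding RFX subunit, at a log2 fold change of 0.14 in HFLF vs HF mice and Nfya, a subunit of the Y box factor, at 0.07. In HFLF vs LF mice Nfya had a log2 fold change of 0.19 (edgeR adjusted p = 0.0493), below the 1.2-fold that a call required. Of the 9 endosomal protease and antigen processing genes 8 were tested and 0 were called in any comparison. The accessory class II genes H2-Eb2, H2-Oa, H2-Ob and H2-DMb2, together with H2-Ea-ps, all fell below the filter. The counts of called genes in these lists are to be read beside the 1.58%, 3.72% and 2.65% of all genes tested in HF vs LF, HFLF vs LF and HFLF vs HF.

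Upstream of Ciita, the interferon gamma gene Ifng held 12 counts in all, with 8 of 15 libraries at 0, and was not tested. Among the 7 tested genes of the interferon gamma pathway, Socs1, a feedback inhibitor of JAK kinases, was lower in HFLF than in HF mice (log2 fold change -0.65, edgeR adjusted p = 0.194), and the others, Irf1 (-0.00) included, were not called in any comparison. Of the 15 tested interferon gamma targets, Ido1, which degrades tryptophan, was higher in HFLF than in LF mice (log2 fold change 1.44, edgeR adjusted p = 0.0706), and the median log2 fold change of the list was 0.06, 0.21 and 0.22 in HF vs LF, HFLF vs LF and HFLF vs HF. Cd274, encoding the checkpoint ligand PD-L1, was higher in HFLF than in LF mice (log2 fold change 0.60, edgeR adjusted p = 0.13), while the costimulatory genes Cd80, Cd86 and Cd40 fell below the filter. These single calls are to be read beside 3.72% of all genes tested called in HFLF vs LF and 2.65% in HFLF vs HF.

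The class I list, which also holds genes outside the MHC such as B2m, Erap1 and the immunoproteasome gene Psmb10, was set beside the class II genes. Of 14 tested, H2-Q2 was higher in HF than in LF mice (log2 fold change 0.33, edgeR adjusted p = 0.144), H2-T3 was higher in HFLF than in LF mice (0.48, edgeR adjusted p = 0.0276) and Psmb10 was lower in HFLF than in HF mice (-0.27, edgeR adjusted p = 0.153). The median log2 fold change of the class I list was 0.05, 0.06 and 0.01 in the 3 comparisons, against -0.10, 1.54 and 1.60 for the class II genes. Whether the 2 lists differ was not tested. The class I calls, 1 of 14 in each comparison, are to be read beside the 1.58%, 3.72% and 2.65% of all genes tested.

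Markers of class II-bearing immune cells were given beside these results for their whole lists. The 8 B cell genes found, Ms4a1 and Cd79a among them, fell below the filter. They summed to 0.992 to 1.51 CPM in LF mice, 0.629 to 12.4 in HF mice and 0.757 to 2.09 in HFLF mice. HF5 (12.4 CPM) and HF2 (6.78 CPM) stood apart, and HFLF4, the highest mouse in class II, had 1.15 CPM. The 12 myeloid genes, 6 of them tested and 0 called, summed to 52.2 to 60.9 CPM in LF mice, 58.1 to 66.9 in HF mice and 49.4 to 58.7 in HFLF mice, most of it Cd14. Of its dendritic cell genes, Xcr1 was at 0 in 10 of 15 libraries and Flt3 in 1, while Itgax, an integrin gene that macrophages also express, was above 0 in all 15. Itgax was highest in HFLF4 (3.34 CPM) and LF1 (2.99 CPM), and its r with the mean of the 7 class II genes was 0.58 over 15 libraries and 0.67 with group means removed, given as a description. The other tested myeloid genes had lower r, from -0.31 to 0.40 over 15 libraries and from -0.15 to 0.46 with group means removed. T cell genes (8 of 10 tested, 0 called) summed to 11.02 to 31.9, 15.2 to 41.7 and 11.9 to 37.5 CPM in LF, HF and HFLF mice. Leukocyte genes (6 of 6 tested, 0 called) summed to 22.8 to 35.5, 29.1 to 65.5 and 23.9 to 54.4 CPM, with HFLF4 at 54.4 and HFLF5 at 23.9 CPM. In HF vs LF, HFLF vs LF and HFLF vs HF, their median log2 fold change was 0.52, 0.35 and -0.26. That of T cell genes was 0.27, 0.37 and -0.03, and that of myeloid genes 0.13, 0.11 and -0.05. The counts called are to be read beside 1.58%, 3.72% and 2.65% of all genes tested in these comparisons.

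Across the 15 libraries, the 21 relations between a class II gene and the mean log2 CPM of the tested myeloid, T cell or leukocyte genes had Pearson's r of 0.166 to 0.495 and Spearman's rho of -0.02 to 0.504, and 0 of 21 passed (permutation tests, two-sided, lowest adjusted p = 0.44 for r and 0.78 for rho). Without the 2 libraries farthest from the median of the marker list, r was -0.03 to 0.685, the highest being Ciita with the myeloid list. The part of immune cells in the differences between diets was not tested, and a relation of this size could have been missed with 15 libraries.

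Markers of gut position were also set beside the diet comparisons, with counts to be read against the same 1.58%, 3.72% and 2.65% of all genes tested. Small intestinal genes, 6 of 9 tested, had 3 called higher in HF than in LF mice and 4 called higher in HFLF than in LF mice. In HFLF vs HF, where class II genes were called, 0 of the 6 were called. The median log2 fold change of the 6 was 0.42 in HF vs LF, 0.61 in HFLF vs LF and -0.02 in HFLF vs HF. The list summed to 729 to 1088 CPM in LF mice, 931 to 1278 in HF mice and 1139 to 1424 in HFLF mice. Of the posterior Hox genes, 7 of 8 were tested. Called lower were 1 in HF vs LF, 5 in HFLF vs LF and 1 in HFLF vs HF mice. Their median log2 fold change was -0.13, -0.45 and -0.22 in these comparisons. The list summed to 437 to 539, 378 to 497 and 310 to 411 CPM in LF, HF and HFLF mice. HFLF4 had 411 CPM, the highest posterior Hox sum of its group. The stroma list, 5 of 9 tested and 0 called, summed to 9.97 to 19.4, 13.7 to 22.0 and 13.9 to 32.6 CPM. The part of these markers in the class II differences was not tested.

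Whole-genome bisulfite sequencing gave a list of 8199 regions called differentially methylated between HF and LF mice (DMRs), 4123 with higher and 4076 with lower methylation in HF mice, with no value per mouse. A DMR lay within 100 kb of the start of 6 of the 7 class II genes, against 51.7% of all 24918 gene entries, and within 20 kb of 3 of 7, against 16.5%. The 5 MHC genes lie close together and share regions, so they do not count as separate observations. The list was described without a test.

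A DMR lay inside 2 of the 7 genes, against 11.2% of all entries. A region of 166 bases with lower methylation in HF mice lay in an intron of H2-DMa, 8883 bases from its start. Another of 21 bases with higher methylation lay in an exon of H2-DMb1, 4106 bases from its start. They are shown because both belong to the 2 H2-DM genes that were called between HFLF and HF mice, on the plus strand with CG dinucleotides in capitals, and each holds 2, one at either end.
H2-DMa, chr17:34131715-34131880: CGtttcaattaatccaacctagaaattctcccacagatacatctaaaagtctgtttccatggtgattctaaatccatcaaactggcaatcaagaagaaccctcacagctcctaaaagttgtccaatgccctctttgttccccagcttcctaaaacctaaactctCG
H2-DMb1, chr17:34157297-34157317: CGgtgatgctggcctgctaCG
H2-DMa and H2-DMb1 were not called between HF and LF mice, the comparison for which the regions were listed. Ciita had a region of 40 bases with lower methylation in HF mice at chr16:10478632-10478671, upstream of the gene, 1401 bases from its start, and its log2 fold change in HF vs LF mice was 0.55 without being called. The nearest region to H2-Ab1, H2-Aa and H2-Eb1 was the same one of 9 bases with lower methylation in HF mice, at 28134, 52678 and 70774 bases from their starts. For Cd74, the nearest region was 219856 bases away. None of the CpGs in the targeted bisulfite amplicons was on chromosome 17, and the nearest ones were 7.92 Mb from Ciita and 11.3 Mb from Cd74.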

How the data were processed

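The authors made stranded mRNA libraries, mapped paired reads to mm10 with TopHat2 2.0.4 and deposited raw counts per gene from HTSeq, 1 column per mouse, with the strand mode and annotation release not given in the sources used here. Reads of overlapping or near-identical genes are therefore uncertain. DMRs were deposited as positions with a direction, and the amplicon table as the fraction of methylated reads per CpG, of which only positions were used. The authors' tables of fold changes and p-values were not used. Counts were fitted in R 4.3.3 with edgeR 4.0.16 (filterByExpr, TMM, group as the only term, quasi-likelihood test), with DESeq2 1.42.0 as an alternative. Log2 CPM used a prior count of 2. Other alternatives were scaling, filters, the groups compared alone, a replicate block, a stricter threshold and leaving out each library. The fit was tested on simulated data. Correlations used Python, and exon lengths and promoters came from RefSeq (GRCm38.p6). The 7 genes, other lists by at most 4 genes each, and genes ranked by likeness to the 7 were named. A few genes that these rules would name are not reported here. Genes and lists were chosen with earlier results of these data known. The p-values of the diet comparisons set group differences against the spread between mice. Those of the correlations came from reordering all 15 libraries regardless of diet.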

Additional observations from a re-analysis of the deposited data

Results flagged for a closer look

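In groups of 5 mice, the highest or lowest mouse was compared with its nearest neighbour, and its gap was set against the whole range of the group on the CPM scale (Dixon's critical value 0.71). Of 21 gene and group combinations 9 passed, all with 1 mouse far above the others, where chance passes about 1 in 20 for normally distributed values. CPM is skewed to the right, and on log2 CPM, a scale added after seeing the data, 2 of the 21 passed, H2-DMa and H2-DMb1 in HF2. The combinations are not independent, since the genes move together. HFLF4 stood apart in its group for H2-Aa (102.8 CPM), H2-Ab1 (79.3 CPM), H2-Eb1 (37.7 CPM), H2-DMa (16.3 CPM) and Cd74 (246.3 CPM). HF2 stood apart in its group for H2-Aa (27.0 CPM), H2-DMa (5.01 CPM), H2-DMb1 (5.195 CPM) and Cd74 (71.9 CPM). No LF mouse passed for any of the 7 genes.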

How the results depend on the processing

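The number of class II genes called in HFLF vs LF was 2 with no filter on low counts, H2-Ab1 and Cd74, beside 570 genes called in all. When only an adjusted p under 0.05 was required, 0 of the 7 were called in any comparison, and 16, 282 and 25 genes of all tested in HF vs LF, HFLF vs LF and HFLF vs HF. Leaving out 1 library at a time gave 0 class II genes in HF vs LF, 0 to 5 in HFLF vs LF and 0 to 5 in HFLF vs HF, and 40 to 331, 362 to 660 and 167 to 400 genes of all tested. Beyond 1.5 times, the count of all genes moved in HF vs LF without LF1 (130), LF2 (44), LF4 (323), HF1 (135), HF2 (331), HF3 (40), HF4 (85) or HF5 (55), and in HFLF vs HF without HF1 (195), HF2 (209) or HFLF5 (167). Sign changes in these fits occurred for log2 fold changes that were not called, in HF vs LF for H2-Aa (-0.95 to 0.47), H2-Ab1 (-0.57 to 0.35), Cd74 (-0.56 to 0.58) and H2-DMb1 (-1.40 to 0.16), and in HFLF vs HF for Ciita (-0.18 to 0.73). The labels do not pair mice by number. Of 15 same-numbered pairs, 6 correlated above 0.1 and 6 correlated best with their own number. Mice numbered 2 did so in each comparison (r = 0.311, 0.362 and 0.279 in HF vs LF, HFLF vs LF and HFLF vs HF). Whether mice of the same number share a factor was not tested. With a replicate block, 2 class II genes were called in HFLF vs HF, beside 346 genes in all. H2-Ab1 was lost (log2 fold change 1.44, edgeR adjusted p = 0.268), and its log2 fold change in HF vs LF turned to 0.0054. The cause was not tested. In the alternatives that kept all libraries, 161 of 168 log2 fold changes kept direction and side of the threshold. The stricter threshold is among them and reused the main fit, so no direction could change there. Under it all 3 calls in HFLF vs HF were lost. With 5 mice per group and this spread, differences smaller than the intervals given could not be resolved.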
